A study of Homo sapiens with 9 samples.

Results

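The genes described here are 10 enzymes of fatty acid synthesis and of the steps that follow it, namely ACLY, ACSS2, ACACA, FASN, SCD, ELOVL5, ELOVL6, FADS1, FADS2 and PCYT2. They were taken by gene symbol and are 10 of the 16199 genes with a value in at least 1 library. All 10 had a value in each of the 9 libraries and passed the filter on low counts, which left 12394 genes for testing. The RNA came from HaCaT cells, a spontaneously immortalised line of human skin keratinocytes, labelled wild type. Post-confluent cells were left untreated in serum-free medium, or received EGF at 10 nM for 24 h or bleogen pB1 at 1 µM for 24 h, with 3 libraries in each group. EGF is a growth factor that activates the epidermal growth factor receptor, and bleogen pB1 is a cysteine-rich plant peptide studied as an agonist of the same receptor. The labels did not say whether the 3 libraries of a group came from separate cultures, so the spread between them may be partly technical, and all of them stand for 1 cell line. The doses of the 2 agents differed, and the 2 treated groups were compared with the same 3 untreated libraries.

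Cells make fatty acids from acetyl-CoA in the cytosol. ACLY cuts citrate exported from mitochondria to give acetyl-CoA, and ACSS2 makes it from acetate. ACACA carboxylates acetyl-CoA to malonyl-CoA, the committed step, and FASN joins these units into palmitate. ELOVL6 and ELOVL5 lengthen the chains, SCD introduces the first double bond into saturated chains, and FADS2 and FADS1 desaturate polyunsaturated chains. PCYT2 activates ethanolamine for the synthesis of phosphatidylethanolamine, into which such chains are placed. Many of these genes are known targets of the transcription factor SREBP-1, which SREBF1 encodes. In skin, the lipids made by keratinocytes form part of the permeability barrier.

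Library depth ranged from 20288417 to 21320994 expected counts, with a median of 20629237. All 8 keratinocyte markers examined reached 1 FPKM (fragments scaled for gene length and library depth) in every group, and their sum was 4666 to 5168 FPKM in untreated cells, 4816 to 5574 FPKM after bleogen pB1 and 3844 to 4056 FPKM after EGF. After EGF, KRT14, KRT10, TP63, ITGA6 and ITGB4 lay above the untreated libraries, KRT5 and CDH1 lay below them, and DSG3 overlapped with them. KRT5, the most abundant, had 1492 to 1589 FPKM after EGF against 3270 to 3636 FPKM, and KRT14 had 1746 to 1788 FPKM against 922 to 1082 FPKM. After bleogen pB1, KRT14, TP63, ITGA6 and DSG3 lay above the untreated libraries, CDH1 lay below them, and KRT5, KRT10 and ITGB4 overlapped with them. Markers of fibroblasts, melanocytes, leukocytes and endothelial cells were each under 1 FPKM, and their sums reached at most 1.69 FPKM, 0.87 FPKM, 0.18 FPKM and 1.05 FPKM, with TYR at 0 throughout. The median log2 fold change over all tested genes was close to 0 in each comparison.

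In untreated cells the 10 genes spanned more than 2 orders of magnitude. SCD had the highest level, with a mean of 2584 ± 112 FPKM (SD, n = 3). It took 1.46%, 1.34% and 1.39% of all counts, the most of any gene in each of the 3 untreated libraries. ACLY at 454 ± 20.6 FPKM and FASN at 425 ± 33.5 FPKM came next, and their ranges overlapped. ELOVL5 at 91.9 ± 3.38 FPKM, ACSS2 at 65.6 ± 2.78 FPKM and FADS1 at 57.8 ± 1.22 FPKM followed without overlap. PCYT2 and ELOVL6, at 27.0 ± 1.22 FPKM and 26.2 ± 1.56 FPKM, could not be ordered. ACACA, whose product feeds FASN, was only at 18.3 ± 0.797 FPKM, and FADS2 was the lowest at 9.07 ± 0.676 FPKM. After bleogen pB1, FADS1 lay above ACSS2, which overlapped with ELOVL6, and PCYT2 overlapped with ACACA. After EGF the order was that of the untreated cells apart from PCYT2 and ELOVL6, whose ranges overlapped again.

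**Figure D1:**
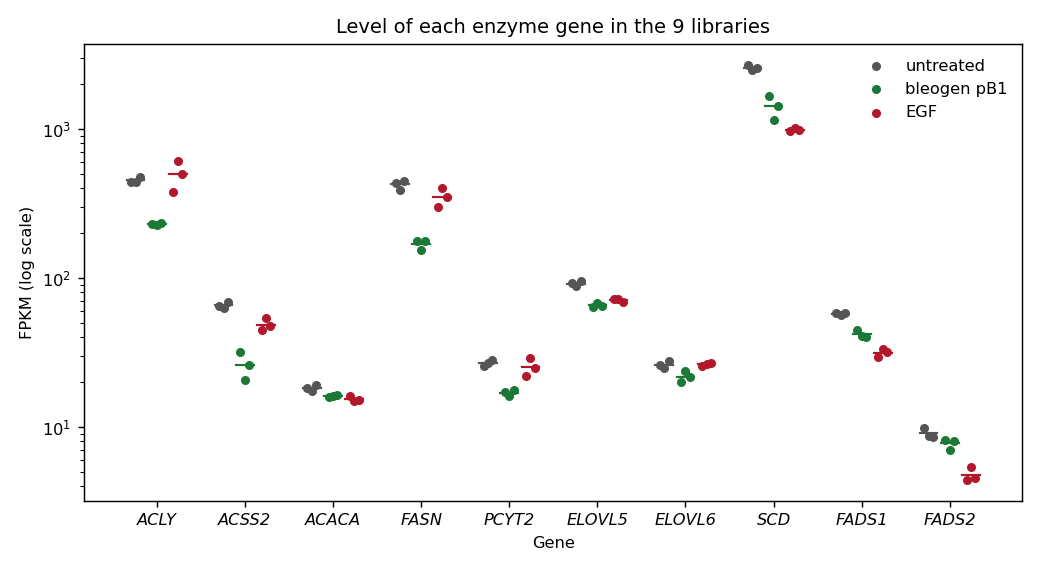
FPKM of the 10 enzyme genes (log scale) in the 9 libraries. Each point is 1 library, coloured by group. SCD lies on top and FADS2 at the bottom in every group, and the bleogen pB1 points lie under the untreated points for all 10 genes.

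The first comparison asked how bleogen pB1 changed these genes relative to untreated cells. A gene was called changed where the edgeR quasi-likelihood test gave an adjusted p of at most 0.05 and the log2 fold change was at least 0.5 in size. Bleogen pB1 lowered 6 of the 10 genes (ACLY, ACSS2, FASN, SCD, ELOVL5 and PCYT2) and raised 0, while 1.26% of all tested genes were called lower and 0.218% higher, 1.48% in all. By adjusted p alone, 8 of the 10 were lower, against a background of 2.55% (1.56% higher and 4.11% in all). For all 10 genes every treated library lay under every untreated library, which was so for 14.7% of tested genes, while 14.4% lay above. The median log2 fold change of the 10 genes was -0.59, with a range from -1.35 to -0.19. In bulk RNA, fewer cells that express a gene and less RNA per cell cannot be told apart.

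The genes of acetyl-CoA supply and of the synthase itself showed the largest falls. ACLY (chromosome 17, 41866917 to 41930542, minus strand, GENCODE 44 on GRCh38) had 441, 443 and 478 FPKM in untreated cells and 229, 229 and 236 FPKM after bleogen pB1. The treated libraries were nearly equal and far below the lowest untreated one, at -0.99 ± 0.13 on the log2 scale (log2 fold change ± SE, edgeR adjusted p = 0.00084). ACSS2 (chromosome 20, 34872146 to 34927962, plus strand) had 65.1, 63.1 and 68.6 FPKM in untreated cells and 31.9, 20.5 and 26.0 FPKM after the peptide. Its treated libraries were more spread than those of ACLY, and all lay well under the controls (log2 fold change -1.35 ± 0.12, edgeR adjusted p = 0.00017). FASN (chromosome 17, 82078338 to 82098294, minus strand) had 437, 387 and 451 FPKM in untreated cells and 178, 153 and 178 FPKM after bleogen pB1. The groups were widely separated, and the log2 fold change was -1.34 ± 0.10, 39.5% of the untreated level (edgeR adjusted p = 0.0001). ACACA (chromosome 17, 37084992 to 37406836, minus strand), which makes the malonyl-CoA that FASN uses, moved little. Its levels were 18.2, 17.5 and 19.1 FPKM in untreated cells and 15.9, 16.2 and 16.4 FPKM after the peptide. The groups did not overlap, but the log2 fold change of -0.19 ± 0.05 did not pass the test (edgeR adjusted p = 0.06). The ratio of FASN to ACACA in FPKM was 24.0, 22.1 and 23.6 in untreated cells and 11.2, 9.46 and 10.9 after bleogen pB1.

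Among the desaturases, SCD (chromosome 10, 100347233 to 100364826, plus strand) fell most. It had 2701, 2478 and 2574 FPKM in untreated cells and 1655, 1158 and 1438 FPKM after bleogen pB1. The highest treated library was below the lowest control, although the treated libraries spread widely (log2 fold change -0.88 ± 0.10, edgeR adjusted p = 0.00056). FADS1, the delta-5 desaturase, had 58.4, 56.4 and 58.7 FPKM in untreated cells and 44.7, 40.9 and 40.2 FPKM after the peptide. Its groups were separated, and with -0.48 ± 0.06 on the log2 scale it passed the test on p but missed the limit on fold (edgeR adjusted p = 0.00084). Without bleogen pB1 replicate 1 its log2 fold change was -0.53 and it was called. FADS2, the delta-6 desaturase, had 9.84, 8.77 and 8.59 FPKM against 8.20, 7.06 and 8.03 FPKM, a log2 fold change of -0.24 ± 0.10 that did not pass (edgeR adjusted p = 0.17).

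The 2 elongases moved less than SCD and FASN. ELOVL5 (chromosome 6, 53267398 to 53349179, minus strand), which extends polyunsaturated chains, had 92.6, 88.2 and 94.8 FPKM in untreated cells and 64.1, 67.6 and 64.9 FPKM after bleogen pB1. The groups were well apart and narrow, and the log2 fold change of -0.50 ± 0.05 lay at the limit on fold (edgeR adjusted p = 0.0003). The call was lost without untreated replicate 3, without bleogen pB1 replicate 1 and without bleogen pB1 replicate 3, where the log2 fold change was never weaker than -0.48. ELOVL6 (chromosome 4, 110045846 to 110199199, minus strand), which extends palmitate to stearate, had 26.0, 24.7 and 27.8 FPKM against 20.03, 23.6 and 21.7 FPKM. Its difference of -0.29 ± 0.07 passed on p but not on fold (edgeR adjusted p = 0.035). PCYT2 (chromosome 17, 81900958 to 81911432, minus strand) had 25.8, 26.9 and 28.2 FPKM in untreated cells and 17.1, 16.1 and 17.6 FPKM after the peptide. Its treated libraries lay close together under the controls, with a log2 fold change of -0.68 ± 0.09 (edgeR adjusted p = 0.0012).

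The promoters of genes that fell are shown because these genes share upstream regulators in general knowledge. RefSeq sequences (GRCh38.p14, from 250 bases before to 50 bases after the start of transcription) were matched by symbol for 9 of the 10 genes, FASN not among them, with 15 windows in all, and the counts below cover those 9 genes. The windows below, read 5′ to 3′ on the strand of the gene, are chr10:100346983-100347282 (plus) for SCD, chr17:41918973-41919272 (minus) for ACLY, chr17:81911350-81911649 (minus) for PCYT2 and, as a gene whose fall missed the limit on fold, chr11:61816954-61817253 (minus) for FADS1. Capitals mark the CCAAT box, which the factor NF-Y binds, as CCAAT or as its reverse complement ATTGG.
SCD: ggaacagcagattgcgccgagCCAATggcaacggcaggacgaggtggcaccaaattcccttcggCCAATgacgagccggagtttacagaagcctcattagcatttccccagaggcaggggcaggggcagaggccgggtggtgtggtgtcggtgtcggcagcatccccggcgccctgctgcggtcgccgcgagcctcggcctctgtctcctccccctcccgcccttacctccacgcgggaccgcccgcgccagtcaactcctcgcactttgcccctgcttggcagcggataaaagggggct
ACLY: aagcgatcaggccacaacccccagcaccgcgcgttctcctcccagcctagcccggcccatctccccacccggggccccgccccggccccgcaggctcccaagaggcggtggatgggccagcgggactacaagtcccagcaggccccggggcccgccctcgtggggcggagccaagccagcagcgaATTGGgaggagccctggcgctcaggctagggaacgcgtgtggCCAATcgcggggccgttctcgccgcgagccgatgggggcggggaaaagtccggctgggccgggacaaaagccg
PCYT2: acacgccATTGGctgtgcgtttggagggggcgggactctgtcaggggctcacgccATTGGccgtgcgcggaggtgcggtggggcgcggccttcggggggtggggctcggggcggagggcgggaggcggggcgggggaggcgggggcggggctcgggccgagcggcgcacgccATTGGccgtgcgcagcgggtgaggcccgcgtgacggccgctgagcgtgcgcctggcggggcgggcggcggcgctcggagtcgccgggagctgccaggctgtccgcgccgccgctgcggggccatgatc
FADS1: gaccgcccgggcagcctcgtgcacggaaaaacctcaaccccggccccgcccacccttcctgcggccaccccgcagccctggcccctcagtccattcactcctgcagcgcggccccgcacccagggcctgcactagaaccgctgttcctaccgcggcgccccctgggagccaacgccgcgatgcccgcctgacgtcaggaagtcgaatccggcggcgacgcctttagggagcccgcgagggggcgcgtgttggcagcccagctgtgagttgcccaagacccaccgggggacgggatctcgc
SCD held 2 CCAAT boxes at 229 and 186 bases before the start, ACLY held 2 and PCYT2 held 3, while the FADS1 window had 0. The called genes with a window (ACLY, ACSS2, SCD, ELOVL5 and PCYT2) each held CCAAT in at least 1 window. So did ACACA and FADS2, which were not called with bleogen pB1. The windows of FADS1 and ELOVL6, also not called, held 0. The same was true of 1 window each of PCYT2, ACSS2, ACACA and FADS2. A link between the boxes and the calls was not tested. Searched on both strands, CCAAT was found in 9 of the 15 windows and in 7 of the 9 genes, against 34.6% of 35116 promoters of the same length. The GC box GGGCGG was in 12 of the 15 windows, against 45% of all promoters. The letters CACGTG were in 1 window, that of ELOVL5, against 7.26%. The sterol regulatory element of the LDL receptor gene, searched in full, was in 0 of the 15 windows and in 0.0456% of all promoters, and the looser form TCACNCCAC was in 0 windows and in 1.13% of promoters. Every copy of the longer element is also a copy of the looser form. These matches are descriptions of letters in a fixed window and not of sites in use.

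The second comparison asked the same of EGF against untreated cells, where many more genes changed. EGF lowered 3 of the 10 genes, the desaturases SCD, FADS1 and FADS2, and raised 0. In this comparison 21.8% of all tested genes were called lower and 15.1% higher (36.9% in all), so the share of the 10 genes called lower was close to the background. Over all genes these were 1875 higher and 2703 lower calls, and with upper-quartile factors 1396 and 3221. By adjusted p alone 6 of the 10 genes were lower and 0 higher, against 33.6% lower and 32.4% higher (66.1% in all). The groups were separated downward for 6 genes, against 35.9% of tested genes, and upward for 0, against 34.5%. The median log2 fold change was -0.26, from -1.32 for SCD to 0.19 for ACLY.

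SCD had 973, 1015 and 985 FPKM after EGF. All 3 were below the lowest bleogen pB1 library and lay close together, with a log2 fold change of -1.32 ± 0.11 or 40.0% of the untreated level (edgeR adjusted p = 3.6e-07). FADS1 had 29.7, 33.3 and 31.7 FPKM, far below the untreated libraries (-0.81 ± 0.06 on the log2 scale, edgeR adjusted p = 2.3e-07). FADS2 had 4.41, 5.42 and 4.55 FPKM, also without overlap (-0.85 ± 0.10 on the log2 scale, edgeR adjusted p = 1.2e-05). In GENCODE 44 the FADS1 gene (chromosome 11, 61799627 to 61829318, minus strand) lies wholly within the span of FADS2 (61792980 to 61867354, plus strand), and whether the counting used strand is not given in the sources used here. The expected counts of both genes were not whole numbers in several libraries. The share of reads that could pass between the pair was not tested, and the values of both genes are uncertain to that extent.

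The genes of acetyl-CoA supply and chain synthesis took another course after EGF. ACLY had 376, 614 and 499 FPKM, the widest spread relative to its mean of the 10 genes in this group. These values straddled the untreated range, and the log2 fold change was 0.19 ± 0.12 (edgeR adjusted p = 0.2). FASN had 298, 402 and 349 FPKM, of which the highest overlapped with the controls (-0.22 ± 0.10 on the log2 scale, edgeR adjusted p = 0.067). ACSS2 had 44.7, 53.7 and 47.9 FPKM, all under the controls, a difference of -0.36 ± 0.12 that passed on p but not on fold (edgeR adjusted p = 0.016). ACACA, at 16.04, 15.0 and 15.3 FPKM, was lower by p alone (-0.19 ± 0.05 on the log2 scale, edgeR adjusted p = 0.0075).

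ELOVL5 had 72.8, 72.8 and 69.3 FPKM after EGF. These lay under the controls and above the bleogen pB1 libraries, with a difference of -0.30 ± 0.05 on the log2 scale against untreated cells (edgeR adjusted p = 0.00024). ELOVL6, at 25.8, 26.5 and 26.9 FPKM, and PCYT2, at 21.9, 29.1 and 24.9 FPKM, stayed within or around the untreated range. Their log2 fold changes of 0.07 ± 0.07 and 0.02 ± 0.09 did not pass the test (edgeR adjusted p = 0.36 and 0.83), and with upper-quartile scaling both estimates turned negative.

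**Figure D2:**
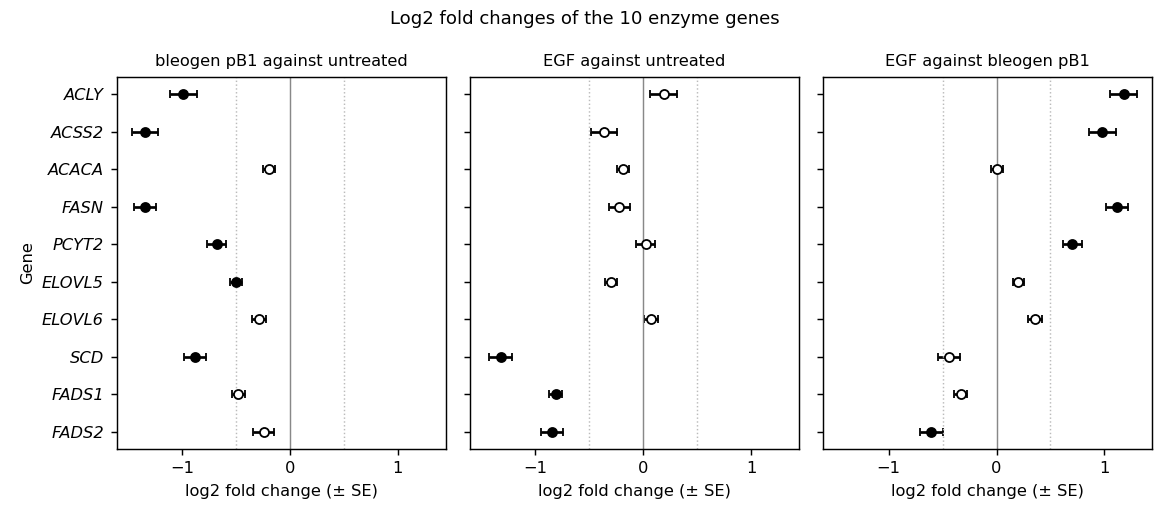
Log2 fold change ± SE of the 10 genes in the 3 comparisons, from 1 edgeR fit over the 9 libraries (3 per group). The dotted lines mark the limit of 0.5 on the log2 scale. All 10 estimates are negative for bleogen pB1, the desaturases are lowest for EGF, and the direct comparison has ACLY, FASN, ACSS2 and PCYT2 to the right and FADS2 to the left.

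The direct comparison of the treated groups, at unequal doses, tested where the responses differed. Relative to bleogen pB1, EGF-treated cells had higher ACLY, ACSS2, FASN and PCYT2 and lower FADS2. These are 4 genes higher and 1 lower of 10, against 10.8% and 18.0% of all tested genes (28.8% in all). By adjusted p alone 6 were higher and 3 lower, against 28.5% and 29.7% (58.2% in all), and the groups did not overlap for 6 higher and 3 lower genes, against 30.7% and 31.7%. The differences, EGF minus bleogen pB1 on the log2 scale, were 1.18 ± 0.13 for ACLY (edgeR adjusted p = 6.6e-06) and 1.12 ± 0.10 for FASN (edgeR adjusted p = 1.7e-06). For ACSS2 the difference was 0.98 ± 0.12 (edgeR adjusted p = 2.4e-05), and for PCYT2 0.70 ± 0.09 (edgeR adjusted p = 3.2e-05). FADS2 differed by -0.60 ± 0.10 (edgeR adjusted p = 0.0003). SCD was lower with EGF by -0.44 ± 0.10, which passed on p but not on fold (edgeR adjusted p = 0.0029). Without bleogen pB1 replicate 2, the library with the lowest SCD of that group, the SCD difference was -0.56 and was called (edgeR adjusted p = 5.2e-05). FADS1 differed by -0.33 ± 0.06 and ELOVL6 by 0.36 ± 0.07, both on p alone (edgeR adjusted p = 0.00053 and 0.00058), as did ELOVL5 by 0.20 ± 0.05 (edgeR adjusted p = 0.0051). For ACACA the difference was 0.01 ± 0.05 (edgeR adjusted p = 0.94).

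The summed level of the 10 genes shows these patterns together. It was 3875, 3594 and 3809 FPKM in untreated cells, 2263, 1732 and 2046 FPKM after bleogen pB1, and 1863, 2267 and 2053 FPKM after EGF. Both treated groups lay far below the controls, and they overlapped with each other. Without SCD, the other 9 genes summed to 1174, 1116 and 1235 FPKM in untreated cells, 609, 574 and 609 FPKM after bleogen pB1, and 890, 1252 and 1068 FPKM after EGF. On that sum the EGF libraries overlapped with the controls and the bleogen pB1 libraries did not. The share of SCD in the sum was 69.7%, 69.0% and 67.6% in untreated cells and 73.1%, 66.9% and 70.3% after bleogen pB1, but 52.2%, 44.8% and 48.0% after EGF. The ratio of SCD to FASN in FPKM was 6.18, 6.40 and 5.71 in untreated cells, 9.31, 7.56 and 8.08 after bleogen pB1, and 3.26, 2.52 and 2.82 after EGF. The 3 groups did not overlap in this ratio, which was highest after bleogen pB1 and lowest after EGF. With 3 libraries per group an exact permutation test of such a sum or ratio cannot go below p = 0.1, so none is given. SCD took 0.893%, 0.625% and 0.776% of all counts after bleogen pB1 and 0.527%, 0.551% and 0.535% after EGF, where it ranked 5 by count in every library.

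**Figure D3:**
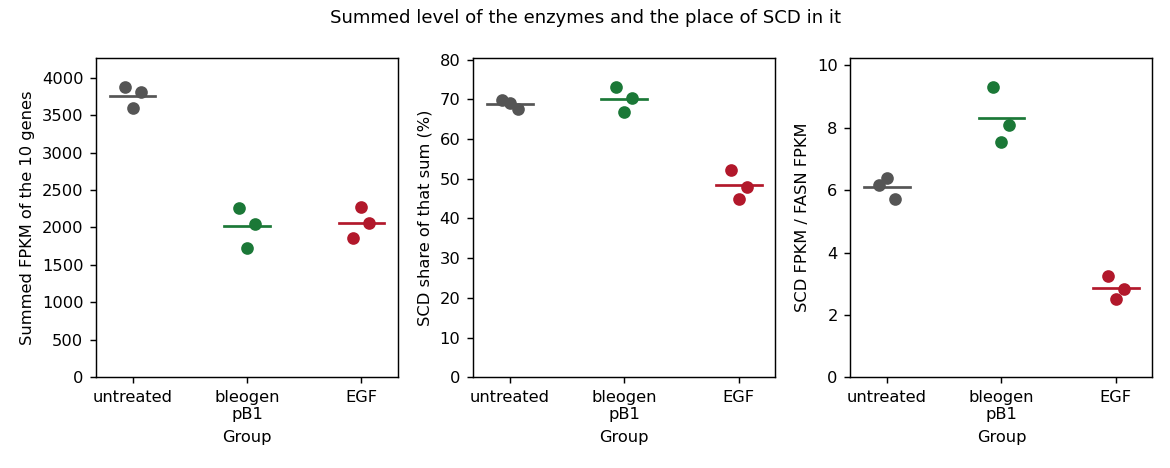
Summed FPKM of the 10 genes, the percentage of that sum from SCD, and the ratio of SCD to FASN FPKM, by group. Points are libraries and lines are group means (n = 3). The sum was lower in both treated groups, the SCD share was lower in the 3 EGF libraries than in the other 6, and the ratio separated the 3 groups.

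The 9 libraries also place the genes relative to each other. Likeness was measured as the root mean square difference between 2 genes in log2 CPM (counts scaled for library depth), each centred on its mean over the 9 libraries. The measure is also small for 2 genes that both moved little, and it was not set against a background of all gene pairs. The closest pairs among the 10 were ACSS2 and FASN at 0.128, ACACA and ELOVL5 at 0.132, and FADS1 and FADS2 at 0.146. The least alike were ACLY and SCD at 0.749. The uncertainty over reads shared by FADS1 and FADS2 bears on the value of that pair too, and its effect was not tested. Among all 12394 tested genes, those nearest to SCD were PLEKHA6 at 0.097, OPLAH at 0.147 and ZNF524 at 0.152. Those nearest to FASN were ACSS2 at 0.128, ACLY at 0.200 and BHLHE40 at 0.212, and those nearest to ACLY were BHLHE40 at 0.116, MSMO1 at 0.141 and MVD at 0.152. MSMO1 and MVD are enzymes of cholesterol synthesis.

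The deposited gene lengths, which follow the transcripts that the reads were assigned to, varied between libraries for 7 of the 10 genes. PCYT2 had a length of 3734 to 3763 bases in untreated cells, 3743 to 3792 bases after bleogen pB1 and 3825 to 3918 bases after EGF. FADS2 was longer after EGF as well, at 3059 to 3077 bases against 3047 to 3054 bases, and ACACA shorter, at 9647 to 9654 bases against 9684 to 9697 bases. Against untreated cells, lengths separated upward for 7.69% and downward for 12.2% of the 7362 tested genes with varying length. Against bleogen pB1 the same 3 genes were separated, with a background of 7.32% and 10.7%. Between bleogen pB1 and untreated cells 0 of the 7 genes were separated, and the background was 5.26% and 5.43%. An FPKM falls as the length rises, which touches the FPKM of PCYT2 after EGF and not its expected count.

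Regulators of lipid synthesis were examined as a list of 16 genes, of which 14 were tested. After bleogen pB1, 4 were called lower (SREBF1, INSIG1, MLXIP and MID1IP1) and 0 higher, against 1.26% and 0.218% of all tested genes. The median of the list was -0.09. SREBF1 had 942, 885 and 910 CPM in untreated cells, 528, 441 and 499 CPM after bleogen pB1, and 483, 610 and 529 CPM after EGF. Both treated groups lay under the controls, at -0.90 with bleogen pB1 (edgeR adjusted p = 0.0002) and -0.76 with EGF (edgeR adjusted p = 7.8e-06), and the difference between them did not pass the test (0.14, edgeR adjusted p = 0.17). INSIG1, which holds the SREBP precursors in the endoplasmic reticulum and is itself a target of SREBP, had 508, 505 and 519 CPM in untreated cells and 307, 268 and 285 CPM after bleogen pB1. With EGF it had 402, 487 and 437 CPM, so its log2 fold change was -0.83 for bleogen pB1 (edgeR adjusted p = 0.00015), -0.21 for EGF (edgeR adjusted p = 0.023) and 0.63 between them (edgeR adjusted p = 1.4e-05). MID1IP1, a protein that promotes the assembly of ACACA into filaments, fell by 0.60 on the log2 scale with bleogen pB1 (edgeR adjusted p = 0.00083) and stood at 0.02 with EGF (edgeR adjusted p = 0.83). SREBF2, which encodes the SREBP that favours sterol genes, had -0.20 with bleogen pB1 (edgeR adjusted p = 0.12) and -0.24 with EGF (edgeR adjusted p = 0.0088). Both treated groups lay under the controls. The EGF difference passed on p but not on fold, and SREBF2 was not called in either. After EGF 4 regulators were lower (SREBF1, MLXIP, NR1H3 and MLXIPL) and 1 higher (MLX at 0.87). Of these, MLX and MLXIPL were named after their values were seen. MLXIPL had only 7.67 counts per library on average, with 0.434, 0.491 and 0.573 CPM in untreated cells and 0.300, 0.050 and 0.048 CPM after EGF. Of all tested genes 21.8% were lower and 15.1% higher with EGF, so the EGF counts of 14 do not stand apart from the background. MLXIP, a glucose-responsive factor, had -0.97 after EGF and -0.66 after bleogen pB1, and NR1H3, the liver X receptor alpha, had -1.23 and -0.15.

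The enzymes of cholesterol synthesis are regulated by SREBP too, and were examined in 2 lists. Of 11 genes from acetoacetyl-CoA to lanosterol, bleogen pB1 lowered 5, among them HMGCS1, MVD, IDI1 and LSS, and raised 0 (1.26% of all tested genes were lower). By adjusted p alone 9 were lower, against 2.55% of all tested genes, and the median was -0.44. MVD at -0.84 and HMGCS1 at -0.70 had the lowest estimates. Of the 10 genes from lanosterol to cholesterol 2 were lower (MSMO1 at -0.76 and CYP51A1 at -0.55) and 0 higher, with 8 lower by adjusted p alone and a median of -0.37. Without bleogen pB1 replicate 2 the second count was 1. After EGF the first list had 0 lower and 1 higher, FDPS at 0.75. The second had 1 lower, TM7SF2 at -1.16, and 1 higher, HSD17B7 at 0.73. With EGF 21.8% of all tested genes were lower and 15.1% higher, so these counts were under the background as shares. The medians of the 2 lists were 0.08 and 0.16. Between EGF and bleogen pB1, 8 of 11 and 5 of 10 were higher with EGF and 0 and 1 lower, against 10.8% and 18.0% of all tested genes. The count of 8 became 5 with upper-quartile factors, without scaling factors and with limma.

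Each remaining list had at most 1 gene called with bleogen pB1, where 1.48% of all tested genes were called. Of 7 genes that supply citrate, acetyl-CoA and NADPH, 0 were called with bleogen pB1. On p alone 4 were lower, against 2.55% of all tested genes, among them SLC25A1, the mitochondrial citrate carrier (-0.33), and ME1 (-0.30). The 1 gene of this list that EGF lowered, ACSS1, had at most 0.819 CPM. Of 11 tested genes of other elongation and desaturation steps 0 were called with bleogen pB1 and 3 were lower with EGF, where the shares of all tested genes called lower were 1.26% and 21.8%, so both counts were near the background. The 3 included ACACB, the mitochondrial acetyl-CoA carboxylase, at -2.002 (edgeR adjusted p = 1.6e-06) and SCD5, the second stearoyl-CoA desaturase, at -1.29 (edgeR adjusted p = 3.1e-06), and HACD4, named after its value was seen, at -1.21. The SCD5 estimate for bleogen pB1 was 0.15 (edgeR adjusted p = 0.49), and the 2 treatments differed by -1.44 (edgeR adjusted p = 1.7e-06). Of 4 tested long-chain acyl-CoA synthetases, which activate fatty acids, ACSL1 was lower with both agents (-0.65 and -0.88). ACSL4, which prefers arachidonate, was at -0.34 with bleogen pB1 (edgeR adjusted p = 0.0057) and was called higher with EGF at 0.58. By adjusted p alone 3 of the 4 were lower with bleogen pB1, against 2.55% of all tested genes, and the median was -0.33. ACSL5 was the other synthetase called lower with EGF, at -0.56, and is named after its value was seen. With EGF 2 of the 4 synthetases were thus lower and 1 higher, against 21.8% and 15.1% of all tested genes.

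Of 14 genes of phospholipid head group pathways, bleogen pB1 lowered 1, LPCAT3, which places polyunsaturated chains into phospholipids (-0.67, edgeR adjusted p = 0.00015). LPCAT3 was at -0.37 with EGF (edgeR adjusted p = 0.0001), under the limit on fold. EGF raised 3 and lowered 2 of 14 (15.1% of all tested genes were higher and 21.8% lower), with SELENOI, the ethanolamine phosphotransferase that acts after PCYT2, at 0.78 and CHKB, a choline kinase, at -0.98. The others called, CHPT1 at 0.64, CHKA at 0.51 and ETNK2 at -0.56, were named after their values were seen. Mitochondrial fatty acid synthesis, which uses another set of enzymes, had 0 of 6 genes called with bleogen pB1 and 1 with EGF, HSD17B8 at -1.59. Of all tested genes 1.48% and 36.9% were called. Of 14 genes of beta-oxidation, the pathway that breaks fatty acids down, bleogen pB1 raised 1, CPT1A, the enzyme of fatty acid entry into mitochondria, at 0.54 (edgeR adjusted p = 0.00051). CPT1A was at 0.44 with EGF (edgeR adjusted p = 4.6e-05), under the limit on fold. EGF lowered 2 of these genes, ACADS at -0.91 and HADHB at -0.81, and raised 1, SLC25A20 at 0.73, which was named after its value was seen. Both counts were lower as shares of 14 than the 21.8% and 15.1% of all tested genes.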

How the data were processed

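Each of the 9 deposited files held 1 library, with expected counts, FPKM and a gene length per gene. The authors made the expected counts and FPKM from oligo-dT selected, dUTP-stranded RNA libraries, and the labels name the build GRCh38.p12. The aligner, the counter and its use of strand are not given in the sources used here. The labels and the study's methods differ on the extraction kit and the sequencing platform. The deposited expected counts, rounded to integers, entered edgeR 4.0.16 under R 4.3.3 (TMM scaling, filterByExpr, quasi-likelihood test, 1 fit over the 9 libraries with 6 residual degrees of freedom). P-values were adjusted by Benjamini-Hochberg over 12394 genes, and genes were called at an adjusted p of at most 0.05 and a log2 fold change of at least 0.5 in size, the thresholds of the study's methods. The standard error was taken from the fold change and the F statistic. The deposited FPKM were used for levels between genes. A count of 3 per library equals 0.141 to 0.148 CPM, for counting error only. The scripts were tested on simulated data. Promoters came from RefSeq (GRCh38.p14), and gene positions and overlaps from GENCODE 44.

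The 10 genes, the lists and the tests were chosen with earlier results of these data known. The text names the 10 genes, SREBF1, SREBF2, INSIG1, LPCAT3, each listed gene called with bleogen pB1, and per list the 2 called genes of largest fold change with EGF and at least 50 counts on average. It also names the 3 genes most like SCD, FASN and ACLY. SLC25A1 and ME1 fall outside that rule and were chosen after their values were seen. ELOVL2, ELOVL3 and THRSP had no value in any library. Some genes of the lists are counted but not reported here by name. Alternatives were DESeq2 1.42.0, limma 3.58.1 on log2(FPKM + 1) or log2(FPKM + 0.1), other scalings and filters, fits with 1 library fewer, and a block on replicate number.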

Additional observations from a re-analysis of the deposited data

How the results depend on the processing

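Of the 10 enzyme genes and the 27 other genes refitted one by one, 0 called estimates changed direction under the alternatives run. For the 10 enzyme genes, 170 of 180 values with bleogen pB1, 177 of 180 with EGF and 170 of 180 between the treatments kept their side of the thresholds, and estimates that changed sign were called in neither fit. With adjusted p alone the calls among the 10 genes were 8, 6 and 9, and those among all genes 509, 8187 and 7214. The count of all genes called with bleogen pB1 was 99 with limma on log2(FPKM + 1) without a filter. Leaving out 1 library gave 102 to 436 calls among all genes with bleogen pB1 (436 without bleogen pB1 replicate 1, 109 without its replicate 2, 102 without its replicate 3 and 102 without untreated replicate 1), 4405 to 4737 with EGF and 3106 to 4041 between the treatments. Among the 10 genes it gave 5 to 6 calls with bleogen pB1, 3 with EGF and 5 to 6 between the treatments. The cause was not tested. ELOVL5 with bleogen pB1 was also not called without scaling factors (-0.49) and with limma (-0.48 on log2(FPKM + 1)). The SCD difference between the treatments was called with upper-quartile factors (-0.53), without scaling factors (-0.51) and with all 3 limma settings (-0.50), 5 of 11 settings beside those that leave out a library. Upper-quartile factors moved the median of all genes to -0.12 with EGF and to -0.10 between the treatments.

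The replicate numbers were in the labels with no statement that they mark a shared culture or day. Deviations of same-numbered libraries correlated between -0.03 and 0.207 for bleogen pB1 and untreated cells, 0.004 and 0.045 for EGF and untreated cells, and 0.027 and 0.056 for the treatments. For bleogen pB1 and untreated cells, differently numbered libraries correlated between -0.253 and 0.163. Whether the numbers pair the libraries cannot be told from these values. With the replicate number as a block, 186, 4560 and 3550 of all genes and 6, 3 and 5 of the 10 genes were called. At 3 libraries per group, changes smaller than the limit of 0.5 were not called, whatever their p.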

Other observations

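Within groups the 10 genes did not order the libraries evenly. EGF replicate 1 was the lowest of its group for 8 of the 10 genes and EGF replicate 2 the highest for 8, where 39.5% and 40.1% of all tested genes had these libraries at those ends. Untreated replicate 3 was the highest for 7 of the 10 (37.9% of all genes) and untreated replicate 2 the lowest for 7 (34.2%). Bleogen pB1 replicate 2 was the lowest for 6 (39.9%). ACLY was 376 FPKM in EGF replicate 1 and 614 FPKM in EGF replicate 2, and PCYT2 was 21.9 FPKM and 29.1 FPKM, while SCD was at 973 FPKM and 1015 FPKM in the same libraries.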
